A study of Mus musculus with 6 samples.

Results

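The 7 fibrillar collagen genes Col1a1, Col1a2, Col3a1, Col5a1, Col5a2, Col5a3 and Col11a1 were followed through every cell class of 6 single-cell libraries, out of 31053 genes listed per library. The members are listed by gene name, with earlier results of these data known, and cells were put into classes by marker genes that include no collagen, so no collagen value entered the classes. The mice carried Tbx18CreER/+ and Rosa26tdT/+, so that tamoxifen makes cells that use the Tbx18 gene carry the red protein tdTomato, and all 6 groups share both alleles, 4 days of tamoxifen into the abdomen and a washout. Cells sorted for tdTomato came from heart ventricles (sham surgery, or the infarct and the peri-infarct zone after ligation of the left anterior descending artery) and from brain cortex (sham surgery, or the infarct and the peri-infarct zone after photothrombosis, a clot made by light). Each group is 1 library, so no difference below has a replicate check, and cells were not used as replicates. The label marks cells that used Tbx18 when tamoxifen was given, not a cell type, and a share of cells depends on the sort. The labels give no age, no time between injury and harvest, and no number of animals per library.

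Fibrillar collagens are the rope-like proteins that give tissue its tensile strength. Type I collagen, built from the Col1a1 and Col1a2 chains, forms the bulk of fibrils and scars, and type III (Col3a1) mixes with it in compliant tissue and in early repair. The minor types V (Col5a1, Col5a2, Col5a3) and XI (Col11a1) start fibrils and limit their width. Fibroblasts are the main known source in heart scars, whereas pericytes, the contractile cells on capillaries, and smooth muscle, the wall cells of larger vessels, mostly carry basement membrane collagens, and how far they add to fibrotic tissue is debated. The series title names pericytes and a fibrotic response shared by heart and brain as its subject.

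The libraries were unequal. After filters they held 11673 cells for heart sham, 8023 for heart infarct and 7346 for heart peri-infarct, and 2587, 2032 and 2291 cells for brain in the same order. Median depth per cell was 1379, 10502 and 8584.5 unique molecules (UMIs) in heart and 3331, 25921 and 2911 in brain, and 3' UMIs count molecules, so levels of different genes need no length correction. Heart sham stood apart: fibroblast markers in its endothelial cells, which do not make them, stood at 24.4% of their level over all its cells, against 1.27% to 2.33% in the other 5 libraries. The part of that background in its low collagen values was not tested. The endothelial level is printed beside the summed collagen and Col5a3 values of heart sham, but not beside its values for the other members. No smooth muscle class and no arachnoid class could be formed in brain infarct. Classes were read against their defining markers: Pdgfra was at 294 CPM (UMIs of the gene per 1000000 UMIs of the class) in heart sham fibroblasts and 784 in brain sham fibroblasts, Kcnj8 at 851 and 1591 in the pericytes of those libraries, and Myh11 at 5152 and 3792 in their smooth muscle cells. Cell barcodes shared between 2 libraries were at most 40, or 1.75% of the smaller library.

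The genes lie on 6 chromosomes of mm10. In the GENCODE vM21 annotation Col1a1 (ENSMUSG00000001506) spans chr11:94936224-94953042 and Col1a2 (ENSMUSG00000029661) chr6:4504814-4541544, both on the plus strand. Col3a1 (ENSMUSG00000026043) lies at chr1:45311538-45349706 on the plus strand, and its neighbour Col5a2 (ENSMUSG00000026042) at chr1:45374321-45503282 on the minus strand. Col5a1 (ENSMUSG00000026837) spans chr2:27886425-28039514 (plus), Col5a3 (ENSMUSG00000004098) chr9:20770050-20815067 (minus) and Col11a1 (ENSMUSG00000027966) chr3:114030540-114220718 (plus). The RefSeq promoter table (GRCm38.p6, the assembly behind mm10) held 5 of the 7 members, all but Col1a1 and Col5a2. The 250 bases before the start are shown for 3 genes on which the results below turn: Col1a2, which brain pericytes carried almost without Col1a1, Col3a1, whose ratio of brain infarct to sham fibroblasts was the highest of the members, and Col5a3, whose level was higher in pericytes than in fibroblasts in several libraries. Capitals mark exact matches on either strand to 3 motifs. The CCAAT box is bound by the factor NF-Y. The letters TATAAA spell a TATA box, which places the start of transcription in some promoters. The letters GGGCGG spell a GC box, bound by factors of the Sp family.
Col1a2 (chr6:4505368-4505617, plus strand): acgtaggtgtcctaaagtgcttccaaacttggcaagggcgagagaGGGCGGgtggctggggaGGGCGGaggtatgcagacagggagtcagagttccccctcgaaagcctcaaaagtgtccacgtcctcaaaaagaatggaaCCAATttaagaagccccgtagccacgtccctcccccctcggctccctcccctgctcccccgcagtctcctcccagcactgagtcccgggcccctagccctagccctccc
Col3a1 (chr1:45311288-45311537, plus strand): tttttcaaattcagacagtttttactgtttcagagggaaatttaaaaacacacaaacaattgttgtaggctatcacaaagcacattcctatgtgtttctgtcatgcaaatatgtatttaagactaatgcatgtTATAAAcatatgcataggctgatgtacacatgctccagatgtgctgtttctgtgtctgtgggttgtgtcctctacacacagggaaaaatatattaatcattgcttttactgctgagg
Col5a3 (chr9:20815068-20815317, minus strand): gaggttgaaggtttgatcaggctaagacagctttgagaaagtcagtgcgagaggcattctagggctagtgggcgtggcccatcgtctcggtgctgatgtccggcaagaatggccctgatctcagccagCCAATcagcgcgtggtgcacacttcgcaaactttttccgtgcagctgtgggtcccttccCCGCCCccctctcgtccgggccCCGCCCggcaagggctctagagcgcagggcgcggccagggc
The Col1a2 stretch holds the CCAAT box at 109 to 105 bases before the RefSeq start, which lies inside the GENCODE gene, and 2 GC boxes. The Col3a1 stretch holds the letters TATAAA at 117 to 112 bases before the start, not shown to place it. It holds no match to the other motifs, with a GC content of 35.2% against a median of 52.4% over 32851 promoters. Col5a3 holds the CCAAT box at 122 to 118 bases before the start and 2 GC boxes on the opposite strand, printed as CCGCCC. Among all promoters of the same length the CCAAT match was in 33.8%, the TATAAA match in 12.4% and the GC box in 32.7%, so these matches are common, and they are letters in a window, not sites shown to be used.

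With the main gate, fibroblasts held more of the fibrillar collagen UMIs than any other named class in all 6 libraries, and pericytes at most 8.75%. Of the 7 genes' UMIs, fibroblasts gave 61.1% in heart sham (exact Clopper-Pearson 95% interval 60.7% to 61.4%), 87.4% in heart infarct (87.38% to 87.47%) and 87.9% in heart peri-infarct (87.9% to 88.0%). In brain they gave 38.4% in sham (37.6% to 39.2%), 98.5% in infarct (98.4% to 98.5%) and 49.2% in peri-infarct (48.5% to 49.9%). These intervals cover counting error only, and the choice of gate moved the shares by more than they do: with named clusters in place of the gate, fibroblasts gave 22.5% in heart sham, below the 27.9% of smooth muscle, 6.40% in brain sham and 9.09% in brain peri-infarct. Unnamed clusters then held 83.6% in brain sham and 86.9% in brain peri-infarct. Some large sham clusters of heart and brain stayed unnamed though their best list was fibroblast. Under every alternative setting fibroblasts led pericytes, smooth muscle and the other named cells in 4 of the 6 libraries. Limited to fibroblasts with at least 0.5 times the sham level of the fibroblast markers, a choice made after seeing the data, the share was 27.6% in brain infarct. Pericytes gave 2.89%, 1.28% and 1.37% in heart sham, infarct and peri-infarct, and 8.75%, 0.150% and 3.23% in brain. Over the alternative settings, single members included, the pericyte share ran from 0.303% to 4.28%, 0.802% to 3.03% and 0.900% to 2.84% in heart. In brain it ran from 0.179% to 17.3%, 0.0123% to 1.33% and 0.0385% to 10.5%. Pericytes were 5.64%, 13.0% and 7.47% of the heart cells and 48.1%, 19.6% and 37.2% of the brain cells. Since depth differed by class, they held 4.59%, 5.61% and 4.01% of all UMIs in heart and 32.8%, 2.63% and 17.9% in brain. Their collagen share was lower than their share of cells and of all UMIs in every library. Smooth muscle gave 7.66%, 0.279% and 0.485% in heart, and 1.15% in brain sham and 0.385% in brain peri-infarct.

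The rest came from other named cells and from cells that met no class. Mesothelial cells, the lining of the heart surface, gave 2.46%, 2.91% and 5.35% in the heart libraries, and arachnoid cells, a layer of the meninges, 8.79% in brain sham and 5.19% in brain peri-infarct. Endothelial cells gave 2.32% in heart sham and at most 0.298% elsewhere. Cells with no class gave 23.5%, 8.04% and 4.53% in heart, and 42.5%, 1.33% and 41.7% in brain. In brain sham and peri-infarct most of that came from unassigned cells led by the arachnoid list (25.2% and 26.1% of all the collagen UMIs) or the fibroblast list (15.4% and 14.7%), whereas unassigned cells led by the pericyte list gave 1.09% and 0.427%.

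**Figure D1:**
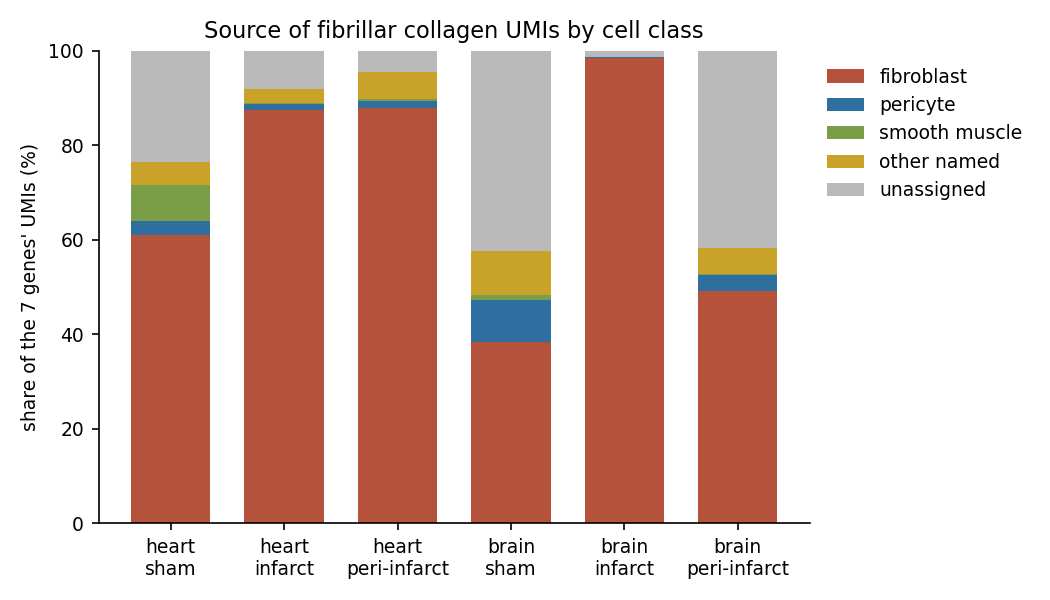
Share of each library's UMIs of the 7 fibrillar collagen genes by cell class (vertical axis, percent, starting at 0) in the 6 libraries (horizontal axis). Fibroblasts hold 87.4% and 87.9% in the injured heart libraries and 98.5% in brain infarct, and pericytes at most 8.75%, in brain sham. In brain infarct 70.8% comes from cells of the fibroblast class with low fibroblast markers, for which the label is weak.

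The amount of collagen RNA differed more between libraries than the shares show. The 7 genes took 0.330% of all UMIs in heart sham, 2.35% in infarct and 1.10% in peri-infarct, and 0.126%, 1.70% and 0.192% in brain. In fibroblasts the summed level was 5079.9, 29195 and 14665 CPM in the sham, infarct and peri-infarct heart libraries. In brain fibroblasts it was 4812, 18751 and 5433 CPM in the same order. The sham fibroblasts of both organs stood close to each other, and 3 of the 4 injury libraries stood well above them, with brain peri-infarct close to its sham. In pericytes it was 2080.1 CPM in heart sham (exact Poisson 95% interval 1988 to 2175), 5347 in infarct (5284 to 5410.0) and 3732 in peri-infarct (3664 to 3801). In brain pericytes it was 335 CPM in sham (317 to 354), 969 in infarct (917 to 1022) and 347 in peri-infarct (321 to 374). Heart pericytes were above brain pericytes in each matched condition, and the endothelial cells of heart sham stood at 958 CPM, against 568 and 294 in heart infarct and peri-infarct and 30.7, 700.4 and 23.8 in brain. The brain infarct endothelial value rests on 426 UMIs, and after thinning to 1000 UMIs per cell 93.0% of those 86 cells had none, with 1 cell at 9. Smooth muscle stood at 1492, 3118.5 and 2478 CPM in heart and at 190.3 and 169 CPM in brain sham and peri-infarct.

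**Figure D2:**
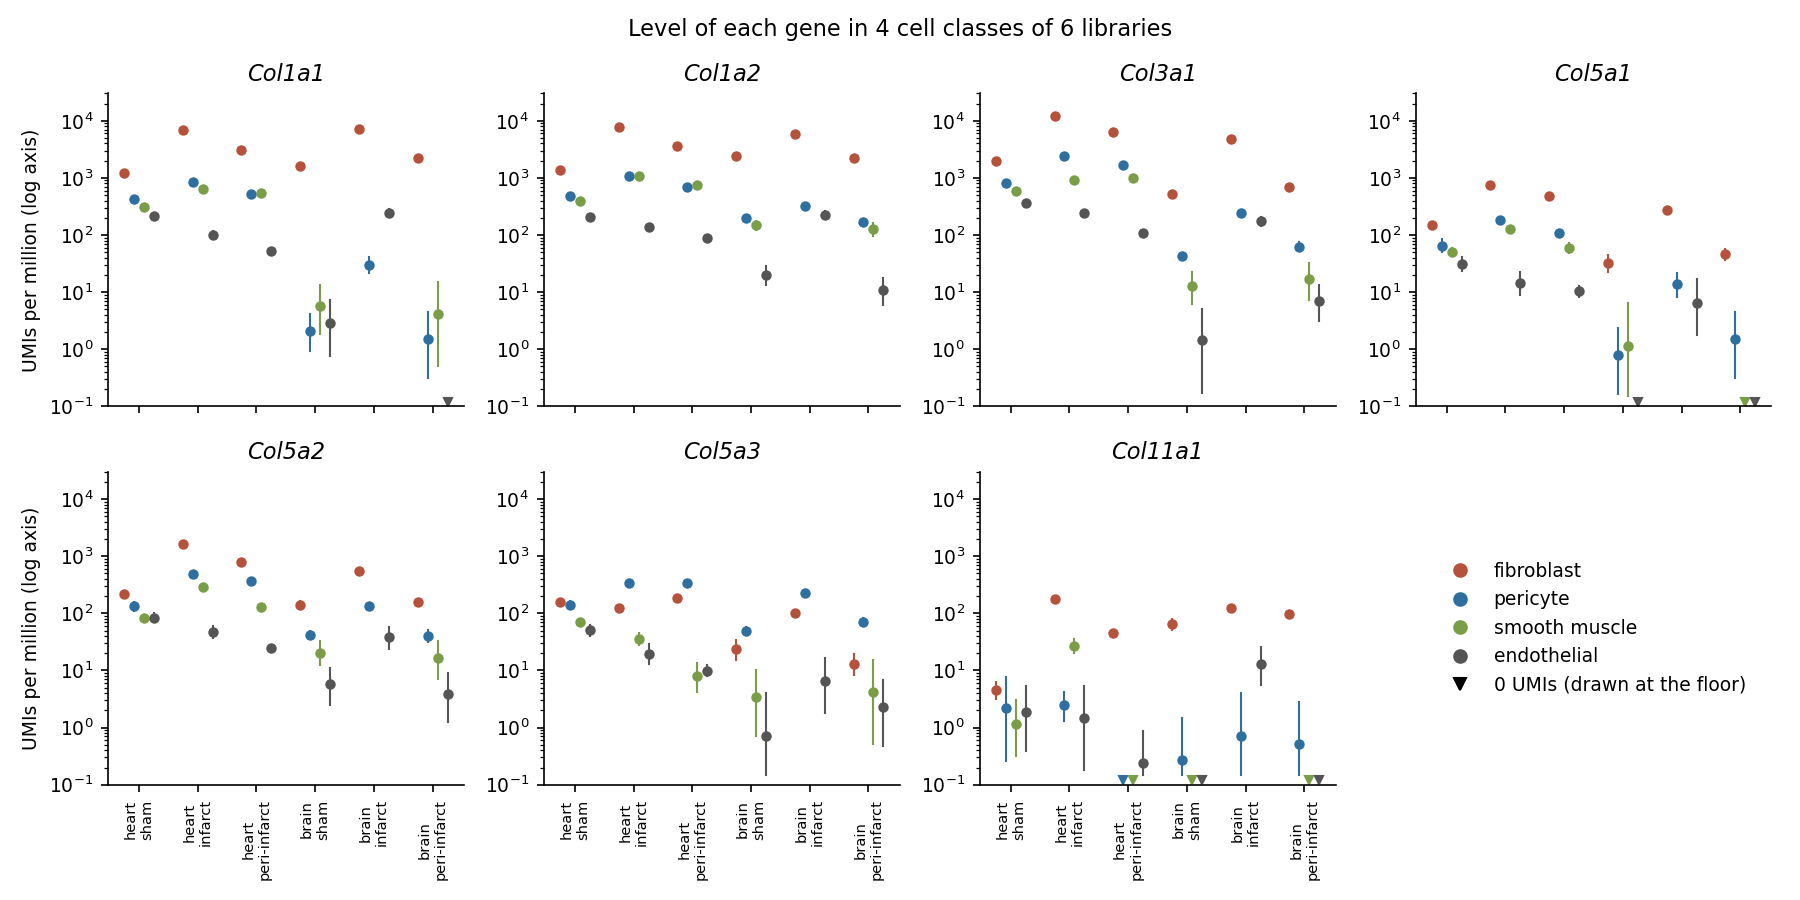
Level of each fibrillar collagen gene (CPM of summed UMIs, log axis) in fibroblasts, pericytes, smooth muscle and endothelial cells of the 6 libraries, with exact Poisson 95% intervals for counting error, drawn down to the axis where they pass it; triangles stand for 0 UMIs. Fibroblasts lead for Col1a1, Col1a2 and Col3a1 in every library, pericytes lead for Col5a3 in all but heart sham, and Col1a1 of brain sham pericytes sits at 2.12 CPM against 198 for Col1a2.

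Type I collagen was highest in fibroblasts among the 4 classes plotted, in every library. Col1a1 in fibroblasts was 1216, 6779.9 and 3120.0 CPM in heart sham, infarct and peri-infarct, and 1645, 7119 and 2211 CPM in brain. Its partner chain Col1a2 was 1378, 7870.5 and 3647 CPM in heart and 2391, 5812 and 2217 CPM in brain. The Col1a1 to Col1a2 ratio of fibroblasts was 0.883, 0.861 and 0.856 in the heart libraries, a narrow range, and 0.688 (95% interval 0.649 to 0.730), 1.22 (1.219 to 1.231) and 0.997 (0.955 to 1.04) in brain sham, infarct and peri-infarct.

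Brain pericytes carried Col1a2 almost without Col1a1. In brain sham pericytes there were 8 Col1a1 UMIs against 744 of Col1a2 (ratio 0.0108, 95% interval 0.00463 to 0.0213), in peri-infarct 3 against 334 (0.00898, 0.00184 to 0.0265) and in infarct 42 against 443 (0.0948, 0.0674 to 0.130). All of these lie far below the fibroblast ratios of the same libraries. After thinning to 1000 UMIs, 0.163% of brain sham pericytes had a Col1a1 UMI against 0.289% of endothelial cells (medians of 2777.5 and 3429 UMIs per cell before thinning; 0.643% and 0.836% unthinned), so Col1a1 there was no higher than in cells that should lack it. For Col1a2 the shares were 16.1% against 1.73% (39.95% and 6.41% unthinned), which is above it. In brain infarct cells and sums gave different orders. After thinning, 12 of 374 pericytes (3.21%, exact Clopper-Pearson 95% interval 1.67% to 5.54%) and 1 of 86 endothelial cells (1.16%, 0.0294% to 6.31%) had a Col1a1 UMI, 9.27% and 4.55% unthinned, with median depths of 2944 and 3873.5 UMIs. By summed UMIs pericytes stood below, at 30.2 CPM against 240.1 CPM, and subtraction of the estimated free RNA took the pericyte value to 0. The intervals of the shares overlap, so a Col1a1 level above that of endothelial cells was not detectable there. Heart pericytes differed: Col1a1 was 424, 854 and 531 CPM and Col1a2 485, 1091 and 699 CPM, and in heart infarct and peri-infarct 37.3% and 24.9% of thinned pericytes had a Col1a1 UMI against 8.96% and 1.18% of endothelial cells (unthinned 70.9% and 51.7% against 27.1% and 9.63%, with median depths of 4021.5 and 4826 UMIs against 4620.5 and 6253.5). In heart sham pericytes subtraction of the estimated free RNA left 316 CPM of Col1a1 and 364 CPM of Col1a2. Brain smooth muscle had 5 Col1a1 UMIs against 128 of Col1a2 in sham and 2 against 61 in peri-infarct.

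Type III collagen took a larger part of the members' UMIs in heart than in brain fibroblasts. Col3a1 was the most abundant member in heart fibroblasts, at 1960.5, 11886 and 6391 CPM in sham, infarct and peri-infarct. In brain fibroblasts it was 514, 4758 and 690.4 CPM, below Col1a1 and Col1a2 in each library, and by level the organs overlapped, since brain infarct stood above heart sham. Its share of the 7 genes' UMIs was 38.6%, 40.7% and 43.6% in heart fibroblasts and 10.7%, 25.4% and 12.7% in brain fibroblasts. Heart pericytes had Col3a1 at 829, 2388 and 1674 CPM, and brain pericytes at 42.2, 246 and 62.6 CPM. In heart sham pericytes subtraction of the estimated free RNA left 676 CPM of it. Mesothelial cells gave Col3a1 the largest part of their members' UMIs in all 3 heart libraries, 56.9%, 43.6% and 50.1%.

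**Figure D3:**
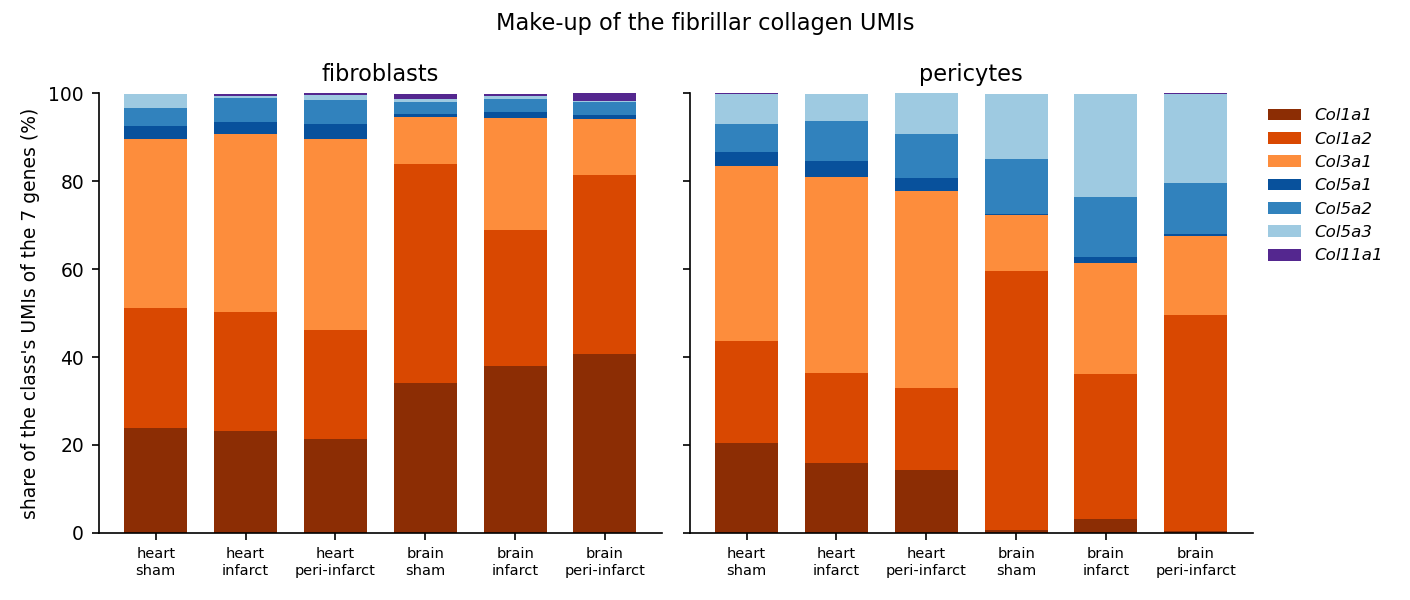
Make-up of the 7 genes' UMIs in fibroblasts and pericytes of the 6 libraries, as percent of the class's fibrillar collagen UMIs (vertical axis, starting at 0). Col3a1 takes 38.6% to 43.6% in heart fibroblasts and 10.7% to 25.4% in brain fibroblasts, and Col1a1 is nearly missing from brain pericytes.

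Of the type V chains, Col5a1 and Col5a2, which build the common form of the protein, were fibroblast-weighted. Col5a2 in fibroblasts was 215, 1615 and 793 CPM in heart and 142, 558 and 159 CPM in brain, against 133, 488 and 373 CPM and 42.5, 132 and 40.2 CPM in pericytes. Col5a1 in fibroblasts was 147, 739.7 and 482 CPM in heart and 32.1, 277 and 46.1 CPM in brain. In pericytes it was 65.0, 187 and 110.4 CPM in heart but 0.797, 13.7 and 1.53 CPM in brain, so brain pericytes had Col5a2 with little Col5a1. In heart sham pericytes subtraction of the estimated free RNA left 53.6 CPM of Col5a1 and 126 CPM of Col5a2.

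Col5a3, a chain of a rarer form of type V, went the other way. Its pericyte level was 141, 338 and 344 CPM in heart and 49.4, 227 and 70.2 CPM in brain, while fibroblasts stood at 158, 125 and 187 CPM in heart and 23.5, 102 and 13.1 CPM in brain. Pericytes were higher in 5 of the 6 libraries, all but heart sham, where endothelial cells stood at 50.3 CPM. Brain endothelial cells were at 0.713, 6.58 and 2.30 CPM, and those of heart infarct and peri-infarct at 19.8 and 9.91 CPM, so the pericyte values lie above the background. Pericytes held 78.5% of the Col5a3 UMIs of brain sham (72.7% to 83.5%) and 68.7% of those of brain peri-infarct (61.8% to 75%), against 5.31%, 14.2% and 9.18% in the heart libraries and 5.99% in brain infarct. Smooth muscle was below pericytes in each library that had it, at 69.5, 35.7 and 7.91 CPM in heart and 3.44 and 4.18 CPM in brain.

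Col11a1, a fibril-starting chain best known from cartilage, was higher in fibroblasts than in any other named class of each library, but much of its RNA in brain sham and peri-infarct lay outside them. It was 4.51 CPM in heart sham fibroblasts (36 UMIs), 179 in infarct (11747 UMIs) and 45.3 in peri-infarct (2277 UMIs), and 64.3, 126 and 95.9 CPM in brain fibroblasts. Pericytes never passed 2.49 CPM, and heart peri-infarct pericytes had 0 UMIs, which allows 0.977 CPM at 3 counts. Heart infarct smooth muscle carried it at 27.0 CPM (53 UMIs), and arachnoid cells at 40.0 and 29.7 CPM in brain sham and peri-infarct. Of its UMIs 31.8% came from fibroblasts and 53.6% from cells with no class in brain sham, and 46.6% from each, 183 UMIs, in brain peri-infarct. Cells with no class carried it at 115 CPM in heart infarct.

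Fibroblasts and pericytes of the same library were set against each other for every member with a mean of at least 50 CPM, and a member was called at a ratio of (CPM + 1) of 2-fold or more. In heart sham 4 of 6 members were higher in fibroblasts (5.71% of all tested genes were), in heart infarct 6 of 7 (9.66%) and in heart peri-infarct 5 of 6 (10.2%). In brain sham 4 of 4 tested members were higher in fibroblasts (9.98%), in infarct 6 of 7 (14.7%) and in peri-infarct 4 of 4 (13.6%). The member higher in pericytes was Col5a3, in heart infarct (log2 ratio of fibroblast to pericyte -1.43, where 9.69% of genes were lower) and in brain infarct (-1.14, where 27.4% were), and in heart peri-infarct it stood at -0.88. Pericytes against smooth muscle gave Col5a3 as higher in pericytes in heart sham (2.03-fold, 95% interval 1.62 to 2.52; 1 of 6 members, against 3.52% of genes), heart infarct (9.45-fold, 7.44 to 12.2; 2 of 6, with Col3a1, against 7.64%) and heart peri-infarct (43.5-fold, 25.3 to 81.9; 2 of 6, with Col5a2, against 10.2%). In brain sham and peri-infarct Col1a2 alone could be tested and passed in neither (28% and 31.3% of genes did in either direction).

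Pericyte collagen was next read against the level of fibroblast marker genes in the same pericytes. In heart infarct pericytes the 10 fibroblast marker genes stood at 2.12% of their fibroblast level and the 7 collagens at 18.3%, and in peri-infarct at 1.06% and 25.4%. The endothelial cells of those libraries had the markers at 1.76% and 0.881% and the collagens at 1.94% and 2.002%. Pericyte collagen in the injured heart was well above the level at which fibroblast markers appear in the same cells. The gate kept cells with high fibroblast markers out of the pericyte and endothelial classes, so their marker level was limited by it. The collagens did not enter the gate, and carry-over of fibroblast RNA was not tested. The free RNA estimate rests on the same markers in endothelial cells. In heart sham the gap was small, 24.7% for the markers and 40.9% for the collagens, with 14.2% and 18.8% in endothelial cells. In brain sham and peri-infarct pericytes the markers stood at 2.87% and 3.57% and the collagens at 6.96% and 6.38%. In brain infarct pericytes the summed markers stood higher than the collagens, 10.8% against 5.17%. Single markers were uneven there, with Dcn at 9.70% but Lum at 0.981% and Pdgfra at 1.07%. In brain sham pericytes the same genes were at 0.939%, 0.0329% and 0.0677%. The brain infarct fibroblasts themselves had the markers at 3718 CPM against 8017 in brain sham fibroblasts. Subtracting the estimated free RNA left 1684, 4913 and 3638 CPM of fibrillar collagen in heart pericytes and 323, 733 and 334 CPM in brain pericytes.

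**Figure D4:**
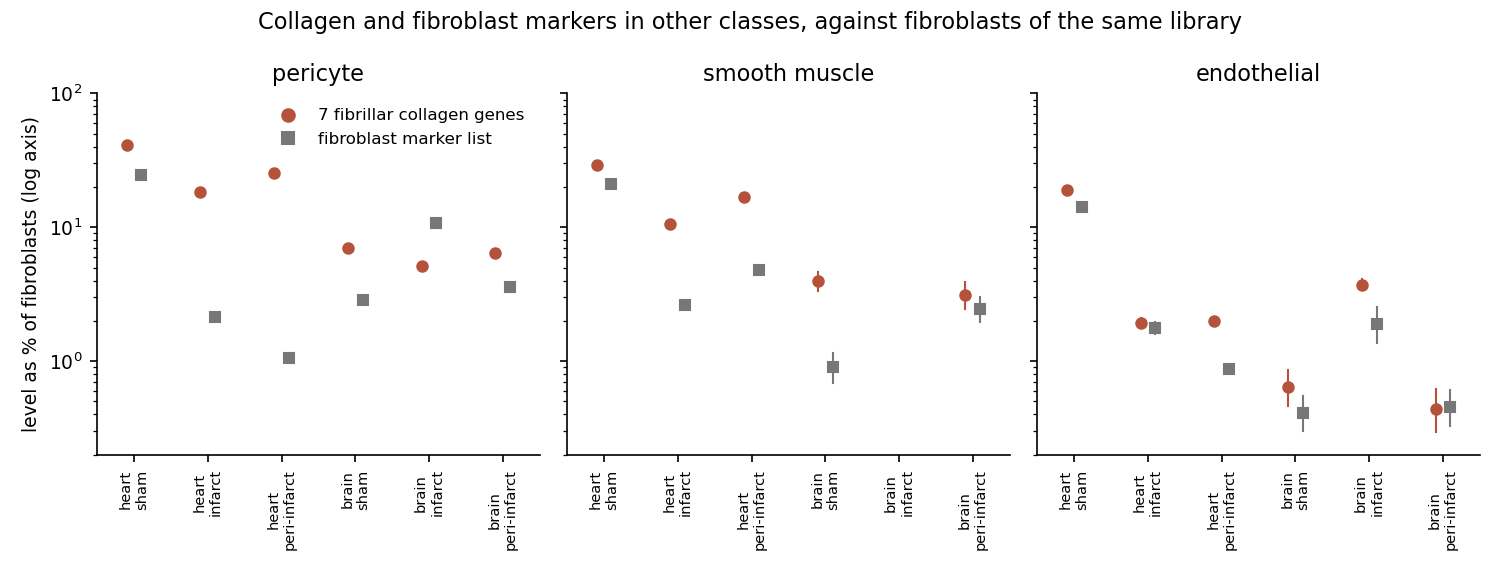
Level in pericytes, smooth muscle and endothelial cells as percent of the fibroblast level of the same library (log axis), for the 7 collagens (circles) and the summed list of 10 fibroblast markers (squares), with 95% counting intervals; brain infarct has no smooth muscle class. In heart infarct and peri-infarct pericytes the collagens stand at 18.3% and 25.4% and the markers at 2.12% and 1.06%. In brain infarct pericytes the summed markers stand above the collagens, though Lum and Pdgfra alone are below them.

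Infarct and peri-infarct libraries were then compared with the sham library of the organ, which both comparisons share. In heart infarct fibroblasts 6 of 7 members were at least 2-fold higher than sham, where 6.73% of 2940 tested genes were. Col1a1 was 5.57-fold higher (95% counting interval 5.46 to 5.69), Col1a2 5.71-fold (5.60 to 5.82), Col3a1 6.06-fold (5.97 to 6.16), Col5a1 5.02-fold (4.74 to 5.32) and Col5a2 7.52-fold (7.17 to 7.89). Col11a1 was 39.7-fold higher (28.7 to 56.8), from the low base given above, and Col5a3 did not move with them, at a log2 ratio of -0.34. The median log2 ratio of the 7 was 2.51 against 0.04 for all tested genes. In heart peri-infarct fibroblasts 5 of 6 tested members were higher (2.89% of genes were), from 2.57-fold for Col1a1 (2.51 to 2.62) to 3.69-fold for Col5a2 (3.52 to 3.88), with Col5a3 at a log2 ratio of 0.24.

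In brain infarct fibroblasts 6 of 7 members were at least 2-fold higher than sham, where 20.2% of tested genes were. Col3a1 was 9.25-fold higher (8.54 to 10.0), Col5a1 8.61-fold (6.24 to 12.2), Col5a3 4.36-fold (3.00 to 6.63), Col1a1 4.33-fold (4.14 to 4.53), Col5a2 3.94-fold (3.38 to 4.62) and Col1a2 2.43-fold (2.34 to 2.52). Col11a1 missed the threshold at 1.96-fold. In brain peri-infarct fibroblasts 0 of 5 tested members passed it, where 20.6% of genes did in either direction: Col1a1, Col3a1 and Col11a1 had log2 ratios of 0.43, 0.42 and 0.57, Col5a2 0.16 and Col1a2 -0.11. The sham and peri-infarct classes differed in mix. A cluster led by Fam180a and Cemip held 72.9% of sham and 32.8% of peri-infarct fibroblasts, at 5024 and 5082 CPM of summed collagen. One led by Penk, Nov and the arachnoid marker Slc47a1 held 2.29% (5 cells) and 30.6%, at 12095 and 6910 CPM. The part of this mix in the ratios was not tested. The edgeR TMM scaling adds 0.74 to every log2 ratio of brain infarct fibroblasts, 0.22 to those of brain peri-infarct fibroblasts, where it turns the sign of Col1a2, and 0.11 to those of heart infarct fibroblasts.

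**Figure D5:**
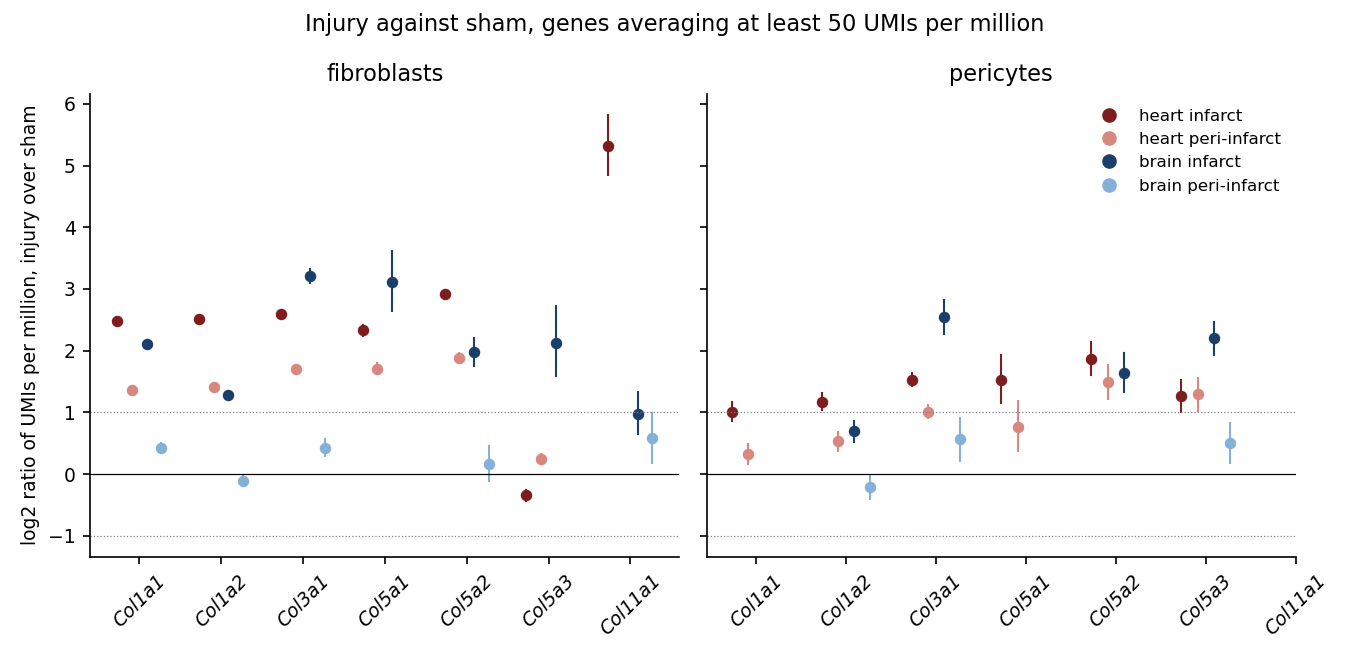
Log2 ratio of CPM of each injury library over the sham library of its organ (vertical axis, without the added 1) for the members that reached a mean of 50 CPM, in fibroblasts and in pericytes, with exact 95% counting intervals and dotted lines at 2-fold. In heart infarct fibroblasts Col11a1 stands highest (39.7-fold) and Col5a3 lies just below 0 (0.788-fold), and all brain peri-infarct values lie between the dotted lines.

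Heart fibroblasts that share a cluster across libraries, clustered without any collagen, did not all stand alike. In the cluster led by Scara5, Pi16 and Cd248, genes of adventitial fibroblasts, the summed collagen level was 5073, 19883 and 12565 CPM for sham, infarct and peri-infarct. In a cluster led by Kcnk2, with Ccl2 and Smoc2 among its leading genes, it was 6236, 17594 and 12040.4 CPM, and in the cluster led by Cxcl14, Gsta3 and G0s2 it was 6175, 6716 and 7156 CPM. The last of these was near its sham level after injury and the others were above it. Their sham arms were small, at 51, 49 and 58 of the 4384 sham fibroblasts, and the infarct arm of the last held 90 cells. The cluster led by Wisp2, Eln and Megf6, with 0 sham cells, held 47.8% of the heart infarct fibroblasts at 33194 CPM and 7.71% of the peri-infarct fibroblasts at 35881 CPM. The peri-infarct fibroblasts of the cluster led by Wif1 and Prg4 stood at 5362 CPM against 5109 in sham. Of the heart sham fibroblasts 78.3% lay in clusters with at least 90% of cells from that library, at 4884 CPM, and the rest at 5532 CPM. This sham class was mixed: 52.6% lay in the cluster led by Gsn and Cxcl14, and 18.8% in one led by Rasd1 and Myh11, named smooth muscle. A further 4.08% lay in a mesothelial cluster and 2.46% in an endothelial one. These stood at 5162, 4368, 4862 and 4280 CPM, and all are in the sham arm of the heart fibroblast ratios above.

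In brain infarct the fibroblast class was mixed, and its label is weak for part of it. Of its 1321 cells, 60.6% had a summed fibroblast marker level below 4009 CPM, a cut at 0.5 times the brain sham level, with Pdgfra at 29.3 CPM against 784 in brain sham fibroblasts and Acta2 at 1238 CPM. These cells held 70.8% of the library's fibrillar collagen UMIs and the others 27.6%, at 19157 and 17784 CPM of collagen. By cluster, 1129 cells lay in clusters with at least 90% of cells from brain infarct, where the summed level was 19816 CPM, and the 192 cells in clusters shared with the other brain libraries stood at 5266 CPM, near the 4812 CPM of sham. In those 192 cells Col1a1 was 1760.3 CPM, Col1a2 2097 and Col3a1 1026 CPM. They were not the mix of the sham class. Of them 134 lay in the cluster led by Penk, Nov and Slc47a1, at 5510 CPM, which held 5 sham fibroblasts. The cluster led by Fam180a and Cemip, with 159 sham fibroblasts, held 20 of them, at 7031 CPM. With 1 library, the clusters mostly from brain infarct may be that library rather than a kind of cell.

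Pericyte ratios to sham had a median log2 value of 1.38 over the tested members in heart infarct, against 2.51 in fibroblasts, and the difference between the classes was not tested. In heart infarct pericytes 6 of 6 tested members were at least 2-fold higher than sham, where 5.4% of genes were, from Col1a1 at 2.01-fold (1.81 to 2.24) to Col5a2 at 3.66-fold (3.05 to 4.42). Some of these calls were lost under other settings: Col1a1 at log2 ratios of 0.97 with the looser gate, 0.52 with thinning and 0.57 with the mean over cells, Col1a2 at 0.89 with the mean over cells and Col5a1 at 0.94 with thinning. In heart peri-infarct pericytes 3 of 6 were (4.87% of genes): Col3a1 at 2.02-fold (1.87 to 2.18), Col5a2 at 2.80-fold (2.33 to 3.40) and Col5a3 at 2.44-fold (2.04 to 2.96), with Col1a1, Col1a2 and Col5a1 at log2 ratios of 0.32, 0.53 and 0.76. The Col3a1 call there was lost under 5 settings, at log2 ratios of 0.83 with the stricter gate, 0.78 with the looser gate, 0.76 with thinning, 0.97 with TMM scaling and 0.64 with the mean over cells, whereas with cells of at least 1000 genes 5 of 6 members were higher. The heart sham pericytes are the weak arm of these comparisons. Only 36 of the 658 lay in the cluster that held 88.2% of the infarct and 83.8% of the peri-infarct pericytes, while 36.5% lay in a cluster led by Rasd1 and Myh11, a smooth muscle gene, and 25.5% in one led by Gsn and Cxcl14, whose best list was fibroblast. Within the shared pericyte cluster the summed collagen level was 1621 CPM in those 36 sham cells, 5770 CPM in infarct and 4261 CPM in peri-infarct, so the direction was the same there.

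In brain infarct pericytes 3 of 4 tested members were higher than sham (3.88% of genes were). Col3a1 was 5.83-fold higher (4.81 to 7.08), Col5a3 4.59-fold (3.82 to 5.53) and Col5a2 3.12-fold (2.51 to 3.87), and Col1a2 had a log2 ratio of 0.69. The endothelial cells of that library carried 173, 6.58 and 37.8 CPM of Col3a1, Col5a3 and Col5a2 against 246, 227 and 132 CPM in pericytes, so by summed level Col5a3 was far above cells that should lack it and Col3a1 less so. By thinned cells 15.5% of pericytes (58 of 374, 95% interval 11.99% to 19.6%) had a Col3a1 UMI against 2.33% of endothelial cells (2 of 86, 0.283% to 8.15%), 37.1% and 13.6% unthinned, so by cells the pericyte share lay above the endothelial one. In brain peri-infarct pericytes 0 of 3 tested members passed 2-fold, where 0.785% of genes did in either direction, with log2 ratios of -0.22 for Col1a2, 0.56 for Col3a1 and 0.50 for Col5a3. By cluster the brain infarct pericytes were uneven. The cluster led by Abcc9 and Atp13a5 stood at 338 CPM of fibrillar collagen in sham and 1123 in infarct, and that led by Hspa1a and Hspa1b, heat shock genes, at 319 and 1097 CPM. The cluster led by Cox4i2 and Vtn stood at 291 and 402 CPM. In this order the clusters held 62, 246 and 41 infarct pericytes. In brain peri-infarct they stood at 337, 966 and 218 CPM, with 329, 39 and 404 pericytes, so the heat shock cluster was above its sham level there too.

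Smooth muscle gave no stable change. In heart infarct 4 of 6 tested members were at least 2-fold higher than sham (7.01% of genes were): Col1a1, Col1a2, Col5a1 and Col5a2, from 2.03-fold (1.87 to 2.21) to 3.50-fold (3.03 to 4.05). That count fell to 1 with a stricter gate, with thinning or with the mean over cells, and Col1a1 then turned slightly below sham. A few cells carried the sum: the 10% of cells with the most among the infarct smooth muscle cells held 58.6% of their thinned collagen UMIs, and 41.7% of the cells had none. In heart peri-infarct smooth muscle 0 of 5 tested members were 2-fold apart (7.57% of genes were, in either direction), a count that ran to 4 higher and 1 lower when doublet calls were kept and to 0 higher and 4 lower with named clusters, and in brain peri-infarct 0 of 1 were (2.69%), with Col1a2 at a log2 ratio of -0.20.

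Single cells showed how general the fibroblast levels were. Thinned to 1000 UMIs, heart fibroblasts had a median of 5, 26 and 8 fibrillar collagen UMIs for sham, infarct and peri-infarct, and brain fibroblasts 4, 18 and 4. Cells with at least 10 made up 7.82%, 90.8% and 42.9% of heart fibroblasts and 9.77%, 74.7% and 11.1% of brain fibroblasts. The heart peri-infarct fibroblasts were the uneven group, with 10% of cells at 3 or fewer and 10% at 27 or more. Pericytes had medians of 2, 4 and 2 in heart and 0 in all 3 brain libraries, and 7.20% of heart infarct pericytes had none. Pericytes at or above the fibroblast median of their library were 11.4% in heart sham, 0.384% in heart infarct (4 of 1041 cells) and 11.0% in heart peri-infarct, and 0.0814%, 0% (of 374 cells, allowing 0.802% at 3 counts) and 0.728% in brain. In heart sham 4.32% of endothelial cells also reached it.

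The other genes of collagen production were read from 7 lists with 72 different genes. In heart infarct fibroblasts 8 of 15 tested hydroxylases and chaperones, which fold the collagen chains, were higher than sham and 0 lower, where 6.73% of all tested genes were higher and 5.48% lower, and 6 of 8 cleavage and crosslinking genes were higher and 1 lower. Sparc, a collagen-binding matrix protein, stood at 12535 CPM against 2319 (4658 and 1465 in endothelial cells), and Lox, the enzyme that crosslinks fibrils, at 826 against 20.2. Of the fibril-associated list 5 of 10 were higher and 2 lower, and Bgn (biglycan) stood at 5322 CPM against 1406. Of 6 tested markers of activated fibroblasts 3 were higher, Cthrc1 at 1170.5 CPM against 6.51, Postn (periostin) at 3330.1 against 273 and Fn1 (fibronectin) at 2312 against 111, and 1 lower. The lower one was Acta2, smooth muscle actin, at 501 CPM against 1314, and heart sham endothelial cells had 1433 CPM of it, so the sham value is at the endothelial level.

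In brain infarct fibroblasts, where 20.2% of all tested genes were higher than sham and 27.1% lower, folding and crosslinking genes were more often higher than lower and fibril-associated genes were not. The hydroxylase and chaperone list gave 8 of 16 higher and 1 lower, among them Serpinh1, the collagen chaperone, at 2239.8 CPM against 585, and crosslinking 3 of 6 higher, with Lox at 263 against 21.7 CPM. The fibril-associated list gave 0 of 8 higher and 3 lower, with Fmod (fibromodulin) at 22.9 CPM against 573, Ogn at 53.4 against 471 and Dcn (decorin) at 1409.7 against 3537. Ogn, Dcn and Lum of this list are also fibroblast markers used in the gate. The summed marker list was lower in the same class, 3718 against 8017 CPM, so Ogn and Dcn are not separate from it. Of 4 tested collagen receptors 3 were lower, among them Mrc2, which takes up collagen fragments, at 116 against 322 CPM. Mmp13, a collagenase, stood at 147 CPM against 0 UMIs in sham, at least 56.4-fold higher at 3 counts for the class, and its inhibitor Timp1 at 1976 against 26.9 CPM. Acta2 stood at 1000.2 against 11.3 CPM, Fn1 at 1566 against 70.4 and Postn at 49.3 against 193 CPM. The medians were 0.98 for the hydroxylase list and -0.88 for the fibril-associated list, against -0.04 for all tested genes.

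In brain peri-infarct fibroblasts 0 of 13 tested hydroxylases and chaperones were higher and 1 lower, and 0 of 4 crosslinking genes higher and 1 lower, where 8.83% of all tested genes were higher and 11.8% lower. Heart peri-infarct fibroblasts had 6 of 14 and 5 of 7 higher, with 0 lower in both, where 2.89% of genes were higher and 2.76% lower. In heart infarct pericytes Serpinh1 stood at 1164 CPM against 410.4, Loxl2 at 238 against 62.8 and Fn1 at 901 against 138, while Dcn stood at 166 against 3508, with endothelial levels of 118 and 1996 CPM. In brain infarct pericytes Bmp1, the enzyme that trims procollagen, stood at 98.6 CPM against 17.8, Pcolce, its enhancer, at 286 against 131, and Acta2 at 538 against 51.5.

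Over 33 class and library units with at least 50 cells, the genes whose level went most like the summed members were Col6a2 (Pearson r 0.914), Col6a1 (0.901), Loxl1 (0.896), Bgn (0.892) and Col6a3 (0.888), among 3398 genes. Units share libraries and depth, so these are descriptions with no test. Among the members Col3a1 and Col5a1 went most alike (0.971), and Col5a3 went least like Col11a1 (0.140) and Col1a1 (0.495). Genes most like Col5a3 were led by Meg3 (0.887) and Lamb1 (0.876), and those most like Col11a1 by Col12a1 (0.870).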

How the data were processed

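Single cells sorted for tdTomato were measured with droplet libraries that read the 3' ends of transcripts, 1 library in each of 6 groups. Per the submitters' processing notes, Cell Ranger 3.0.2, Seurat 3 and the build mm10 were used; the deposited values are raw UMI counts per gene and cell, made by the authors, and everything below was computed from those counts. Cells with at least 500 genes and at most 10% mitochondrial UMIs were kept. Doublets were called from Scrublet scores (scanpy 1.11.5), removing the top 0.8% per 1000 barcodes, since automatic thresholds were not consistent between libraries. Cells were gated by 13 marker lists that hold no collagen: a class needed a position of at least 0.5 on its list, a lead of 0.25 over the next list and 3 detected markers. A list was used in a library only where its cells reached 1000 CPM of it and 1/3 of the highest level in the organ, a rule set after marker values, but not collagen values, had been seen. The members and lists were chosen with earlier results of these data known. UMIs were summed per class and library and given per 1000000 UMIs of the class (CPM). Classes had at least 50 cells. Genes whose mean reached 50 CPM were compared as ratios of (CPM + 1) with a 2-fold threshold, and with 1 library per group no p-value was computed. Intervals are exact at 95% (Poisson for levels, Clopper-Pearson for shares, binomial for ratios), and intervals and limits from 3 counts cover counting error only. Of the pathway lists, up to 4 genes each with the largest ratios could be named. Cells were also clustered without the members (2000 variable genes, 30 components, 15 neighbours, resolution 1). Alternatives covered cell filters, gate, doublets, thinning to 1000 UMIs, free RNA, single members, the fibroblast marker cut and TMM scaling (edgeR 4.0.16). The computation was tested on simulated data.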

Additional observations from a re-analysis of the deposited data

Results flagged for a closer look

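None of the 7 fibrillar collagen genes moved 2-fold in opposite directions in heart and brain, but some genes of the surrounding lists did. With 1 library per group the difference between the organs was not tested. In infarct fibroblasts Acta2 (smooth muscle actin) had a log2 ratio to sham of -1.39 in heart and 6.35 in brain, where the heart sham endothelial cells already carried 1433 CPM of it. Mrc2, a collagen uptake receptor, stood at 1.35 in heart and -1.46 in brain, and Postn (periostin) at 3.60 and -1.95. In peri-infarct fibroblasts Postn stood at 2.97 in heart and -2.27 in brain. Cthrc1, a secreted protein of activated fibroblasts, stood at 5.56 and -1.12 there, and the brain endothelial cells carried it at 281 CPM in peri-infarct and 237 CPM in sham. Loxl2, a crosslinking enzyme, stood at 1.61 and -1.10. In infarct pericytes Dcn (decorin) stood at -4.39 in heart and 2.01 in brain, and the endothelial level of Dcn in heart was 118 CPM in infarct and 1996 CPM in sham. The part of the free RNA of heart sham in these values was not tested.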

How the results depend on the processing

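No paired analysis was possible because each group is 1 library, and for the same reason no replicate could be left out. There were 17 settings, of which those with a single member gave shares only. Under the others, 447 of 453 ratios of the 33 called members kept their direction and 428 stayed 2-fold. Part of these could not move. The minimum of 10 CPM changes no ratio, and the fibroblast marker cut changes none of pericytes or smooth muscle. Of the counts of called members, 143 of 152 were within 1.5 times. Fibroblast shares moved as follows, in percent, for heart sham, infarct and peri-infarct and then brain sham, infarct and peri-infarct. Col1a1 alone gave 63.5, 87.9, 90.1, 42.3, 98.5 and 54.1, and Col3a1 alone 59.7, 88.3, 87.4, 39.3, 98.8 and 46.7. Col1a2 alone gave 63.7, 86.2 and 86.7 in heart and 98.3 and 47.4 in brain infarct and peri-infarct. The looser gate gave 65.4, 89.2, 89.4, 47.7, 99.3 and 55.8, the stricter gate 50.6, 81.5, 85.2, 35.3, 92.5 and 37.7, and named clusters 22.5, 81.0, 86.7, 6.40, 84.6 and 9.09. Thinning gave 60.02, 88.7, 89.4, 47.4, 96.7 and 46.7. At least 1000 genes gave 67.7, 87.3 and 87.8 in heart, at least 200 genes 48.4 in brain peri-infarct, and up to 20% mitochondrial UMIs 60.2, 87.6 and 88.8 in heart and 39.4 in brain sham. Keeping doublet calls gave 56.5, 82.9 and 81.6 in heart and 98.3 in brain infarct, and subtracting free RNA 68.0, 87.8, 88.2 and 98.6. The fibroblast marker cut, added after seeing the data, gave 59.8 and 78.2 in heart infarct and peri-infarct and 36.2, 27.6 and 45.5 in brain.

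Members 2-fold apart were 5 in heart peri-infarct pericytes with at least 1000 genes per cell. In heart infarct smooth muscle they were 1 with thinning, with the mean over cells and with the stricter gate. In heart peri-infarct smooth muscle they were 5 with doublet calls kept (4 higher and 1 lower) and 4 with free RNA subtracted (4 higher), but 4 with named clusters (4 lower), 1 at a minimum of 10 CPM (lower) and 1 with the stricter gate (higher), so the settings went opposite ways. Among called members, heart infarct smooth muscle held the reversed values: Col1a1 at -0.19 with thinning, -0.0551 with the mean over cells, -0.10 with the stricter gate and -2.39 with named clusters, and Col1a2 at -0.15 and Col5a1 at -1.07 with named clusters. The cause was not tested. Heart infarct pericytes lost Col1a1 under 3 settings, Col1a2 with the mean over cells and Col5a1 with thinning, and heart peri-infarct pericytes lost Col3a1 under 5. Named clusters gave no heart pericyte ratio, since the sham class then had under 50 cells. Heart sham had the lowest median depth, 1379 UMIs per cell, and thinning left out 844 of its 4384 fibroblasts.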
